A study of Mus musculus with 78 samples.

Results

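Gene expression in the anterior cingulate cortex (Cg) was compared between mice bred for high (HAB) and for normal (NAB) anxiety-related behavior. The comparison used 11 of the 78 arrays listed in the labels, 5 from HAB and 6 from NAB mice, taken by region and line as their titles give them. Of the 78 arrays 75 carried values, and they also covered the central (CeA) and basolateral (BLA) amygdala, the hypothalamic paraventricular nucleus (PVN), the dentate gyrus (DG) and a further line bred for low anxiety-related behavior (LAB, 6 Cg arrays), which the design text calls the reference. All mice were 10-week-old CD-1 males of breeding generation 25, and every array held the RNA of 1 mouse and 1 region. The study asked which genes differ in expression between the lines, and the HAB against NAB contrast sets the high-anxiety line against the line of intermediate behavior.

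The cingulate cortex is a midline part of the cortex that is connected with the amygdala and the hypothalamus and takes part in the appraisal of threat. Its glutamatergic projection neurons and GABAergic interneurons carry receptors for stress peptides such as corticotropin-releasing hormone. Lines of mice selected over many generations for opposite behavior come to differ in alleles that affect the behavior and also in alleles fixed by chance or by linkage, so a line difference in RNA is not by itself tied to anxiety. Each line is 1 breeding population, so that line and any other feature the population came to carry cannot be told apart. The tissue was cut out by laser from cresyl violet-stained sections and contained all cell types of the region. In such bulk tissue, fewer cells of a type and less RNA per cell cannot be told apart.

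Intensities are the deposited normalised probe intensities on a linear scale, and differences are log2 HAB minus log2 NAB with the standard error (SE) of limma. Probes were tested where 5 or more of the 17 Cg arrays exceeded background, defined as the 95th percentile of the probes for odorant and pheromone receptors on the same array. This level lay between 7.95 and 9.59 on the 11 arrays, and 32.7% to 39.2% of the probes exceeded it. Pairs of arrays of a line correlated at 0.963 to 0.985 over the tested probes, and pairs across lines at 0.955 to 0.978. The dissection was checked on marker genes of the 11 HAB and NAB arrays. The vesicular glutamate transporter Slc17a7 read 272 ± 24.9 and the cortical transcription factor Tbr1 84.9 ± 8.77, both above background on 11 of 11 arrays. The PVN hormones Oxt and Avp exceeded background on 2 and 0 of 11 arrays. Slc17a7 was not specific to the Cg, since BLA arrays averaged 497 and DG arrays 300.1, whereas Tbr1 had its highest mean here. Neurod6 stayed at background on all 11 arrays (5.60 ± 1.47). Prox1 (15.8), Prkcd (14.4), Drd1 (25.9) and Ppp1r1b (17.5) exceeded background on all 11. Each had a higher mean elsewhere, such as 145 for Prox1 among DG arrays and 102 for Prkcd among CeA arrays. These markers thus gave a partial check only. The summed intensity of 7 striatal marker genes was 668 on the array of NAB mouse 04 and 257 to 307 on the other 10. Without this array 383 probes were called instead of the 390 below, and 351 probes were in both sets.

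HAB and NAB differed at 390 of 18274 probes in the Cg (2.13%, adjusted p at most 0.05). Of these, 224 were higher in HAB (1.23% of the probes tested) and 166 lower (0.908%), while the median difference of all probes was +0.02. The excess of higher probes depended on the scaling, since 57.4% of the called probes were higher as deposited, but 49.7% after the median of each array was set equal and 49.6% without HAB mouse 09. The median size of a called difference was 0.82 on the log2 scale, 151 probes differed by at least 1 and 47 by at least 2. In 312 of the 390, the HAB and NAB arrays did not overlap, against 436 of all 18274 probes (2.39%). Many of the differences were between a measured level in one line and background in the other, with 41 called probes above background on no NAB array and 43 above background on no HAB array. A probe could enter the test through 1 bright line alone, and these counts were not taken over all probes tested. Above background on all 11 arrays were 219 of the 390 called probes, against 12544 of all 18274. Of the 390 probes, 308 carried a single gene symbol, and these stood for 284 genes.

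**Figure D1:**
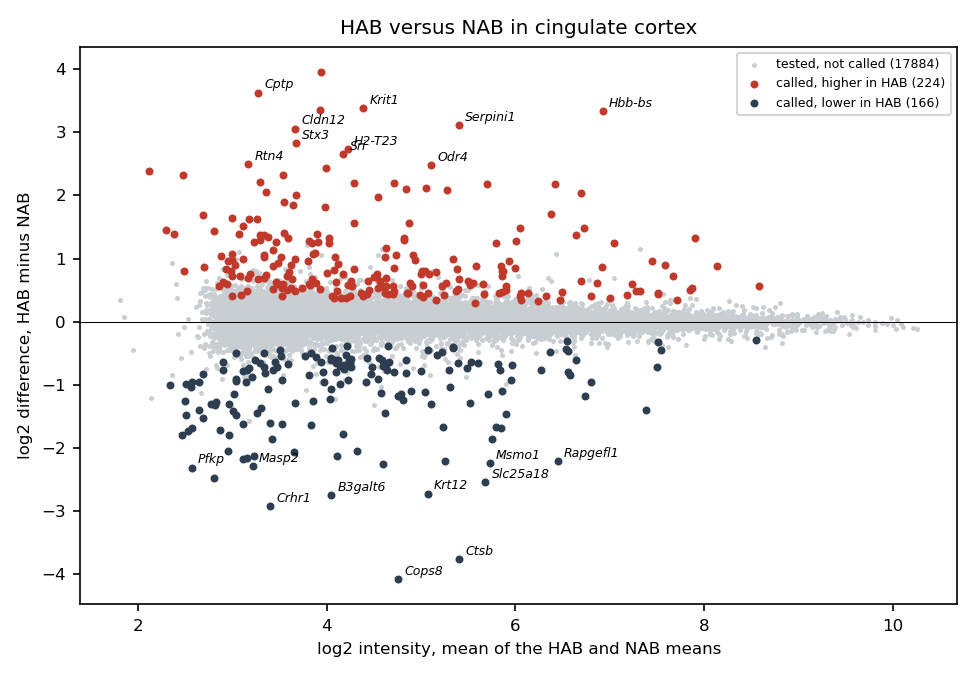
Log2 difference (HAB minus NAB, vertical axis) against mean log2 intensity (horizontal axis) of the 18274 probes tested in the cingulate cortex. Red points are the 224 called probes higher in HAB and dark points the 166 lower in HAB; the 20 named genes lie at the edges of the cloud, from Cptp (+3.63) to Cops8 (-4.07).

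Among the genes higher in HAB, the largest difference at a probe with a gene name was that of Cptp, whose product carries ceramide-1-phosphate between membranes. Its intensities were 34.6, 27.1, 41.9, 36.3 and 29.0 on the 5 HAB arrays and 2.03 to 3.87 (median 2.61) on the 6 NAB arrays. All HAB arrays were above and all NAB arrays below background, so Cptp was at least 3.80-fold higher in HAB, with a measured difference of +3.63 (SE 0.18, adjusted p = 6.48e-11). LAB mice were as low as NAB (2.86 ± 0.780). Stx3, a syntaxin that drives membrane fusion at the plasma membrane, behaved in the same way, at 32.8, 26.6, 37.6, 36.4 and 36.9 in HAB and 4.13 to 5.74 (median 4.61) in NAB. The HAB signal at this probe was thus at least 3.85 times that of NAB (+2.83, SE 0.13, adjusted p = 2.36e-11), with LAB at 4.86 ± 0.900. A second Stx3 probe, however, read 13.1 in HAB and 12.9 in NAB (+0.03, adjusted p = 0.989). One probe of Rtn4, the gene of the neurite growth inhibitor Nogo, read 24.5, 20.6, 20.3, 25.9 and 15.8 in HAB and 2.76 to 5.16 (median 3.81) in NAB, at least 2.41-fold higher (+2.50, SE 0.18, adjusted p = 1.85e-08). The brightest Rtn4 probe did not pass the test, at 332 in HAB and 367 in NAB (-0.14, adjusted p = 0.716).

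Krit1, Cldn12 and Sri, which lie close to each other on chromosome 5, were higher in HAB than in NAB and had a level in LAB near that in HAB (Cldn12 36.7 ± 2.50, Sri 45.0 ± 4.91). Krit1 encodes a scaffold of endothelial cell junctions and is mutated in cerebral cavernous malformation. Its leading probe read 71.1, 49.3, 84.9, 63.5 and 60.9 in HAB and 3.52 to 10.2 (median 7.07) in NAB, a difference of +3.38 (SE 0.20, adjusted p = 1.15e-09), and LAB lay at 66.1 ± 5.18. The tight junction claudin Cldn12 read 44.1, 26.3, 37.7, 34.8 and 37.5 in HAB against 2.25 to 5.60 (median 4.77) in NAB, where all arrays were at background, and was thus at least 4.06-fold higher (+3.06, SE 0.18, adjusted p = 9.48e-10). Sri encodes sorcin, a calcium-binding protein that acts on ryanodine receptors. It read 41.0, 41.7, 51.8, 46.2 and 44.6 in HAB and 6.06 to 9.00 (median 7.14) in NAB, at least 5.12-fold higher (+2.65, SE 0.11, adjusted p = 4.79e-12). The HAB and NAB arrays were apart in all 3 genes, which was a condition for naming them. The second probes of Krit1 (+0.51, adjusted p = 0.0471) and of Sri (+1.44, adjusted p = 1.03e-06) passed in the same direction.

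The nonclassical histocompatibility gene H2-T23, whose product presents peptides to receptors of natural killer cells, was higher in HAB at all 3 of its tested probes. The leading probe read 48.5, 45.4, 43.8, 54.1 and 46.8 in HAB and 5.04 to 8.82 (median 7.66) in NAB (+2.73, SE 0.17, adjusted p = 2.30e-09), and the other probes differed by +1.89 (adjusted p = 1.68e-08) and +1.39 (adjusted p = 1.24e-06). LAB resembled NAB at the leading probe, with 6.02 ± 1.38. The related gene H2-T9 was at 47.2, 42.6, 46.5, 51.0 and 38.7 in HAB and 6.90 to 16.9 (median 12.1) in NAB (+1.97, SE 0.19, adjusted p = 1.12e-06). These genes share much of their sequence, so their probes may not measure separate transcripts. Odr4, whose Caenorhabditis elegans counterpart is needed to bring odorant receptors to the cilia, read 86.5, 77.5, 91.8, 80.5 and 68.0 in HAB and 10.5 to 19.1 (median 14.9) in NAB (+2.48, SE 0.14, adjusted p = 4.49e-10), with LAB at 18.1 ± 2.07. For each of these genes every HAB array was above every NAB array, a condition for naming H2-T23 and Odr4 but not H2-T9. In the list for antigen presentation 4 of 25 probes (16.0%) were called, the 3 of H2-T23 and 1 of H2-Q2 (+0.56, not called with the mouse as a random block across regions), while the median of the list was +0.04.

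Several further genes were higher in HAB and bright on all 11 arrays. Stard7, a carrier of phosphatidylcholine to mitochondria, read 65.5, 64.0, 77.7, 73.4 and 63.8 in HAB and 13.8 to 17.3 (median 16.3) in NAB (+2.12, SE 0.09, adjusted p = 4.79e-12). Gnaq, the alpha subunit of the Gq protein that couples many neurotransmitter receptors to phospholipase C, read 73.0, 70.4, 98.0, 78.9 and 77.7 in HAB and 16.8 to 21.3 (median 18.4) in NAB, a 4.23-fold difference (+2.08, SE 0.10, adjusted p = 8.24e-11). Both were without overlap between the lines. At the other 3 Gnaq probes the difference was between -0.29 and -0.16 and none passed (adjusted p = 0.486 to 0.723). Nt5dc3 read 173 to 231 in HAB and 42.5 to 60.1 in NAB (+2.04, SE 0.10, adjusted p = 4.89e-11). One probe of the RNA polymerase I subunit gene Cd3eap read 42.2 to 57.0 and 13.6 to 19.3 (+1.56, SE 0.13, adjusted p = 8.52e-08). The second Cd3eap probe did not pass, at 54.2 in HAB and 59.5 in NAB (-0.14, adjusted p = 0.755). The mitochondrial phosphate carrier Slc25a3 ranged over 86.8 to 127 in HAB and 32.1 to 52.9 in NAB (+1.48, SE 0.14, adjusted p = 1.13e-06). LAB was near HAB for Stard7 (69.5 ± 5.25) and Nt5dc3 (214 ± 17.9) and near NAB for Gnaq (18.9 ± 2.35), Cd3eap (16.1 ± 3.15) and Slc25a3 (41.7 ± 6.42).

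The largest decrease was found for Cops8, which encodes a subunit of the COP9 signalosome, a complex that removes the modifier Nedd8 from ubiquitin ligases. Its probe read 4.44, 6.22, 7.78, 6.96 and 7.88 in HAB, at background on all 5 arrays, and 105 to 117 (median 109.9) in NAB. Cops8 was at least 12.6-fold lower in HAB (-4.07, SE 0.16, adjusted p = 4.54e-12), and LAB was as low as HAB (6.86 ± 1.66). It was the only called probe among the 14 tested probes of COP9 subunits, whose median difference was +0.07. Ctsb, the gene of the lysosomal protease cathepsin B, read 12.5, 4.39, 17.8, 10.8 and 14.4 in HAB and 114 to 181 (median 150.2) in NAB at its leading probe (-3.76, SE 0.25, adjusted p = 6.32e-09). LAB resembled NAB there (158 ± 32.2). The second Ctsb probe passed the test in the opposite direction, with 66.5 in HAB and 48.2 in NAB (+0.46, adjusted p = 0.00820), so that the probes of this gene give no common direction.

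Crhr1, the main brain receptor of corticotropin-releasing hormone, was the only gene of the stress axis list with a called probe. This probe read 4.21, 4.15, 3.27, 4.84 and 2.84 in HAB and 23.1 to 35.2 (median 29.7) in NAB, with the groups far apart. All HAB arrays were at background, so it was at least 3.28-fold lower in HAB, and the measured difference was -2.92 (SE 0.22, adjusted p = 2.95e-08). LAB was at background as well (4.16 ± 1.85), so that NAB alone of the 3 lines had a measured level. A second Crhr1 probe read 8.59 in HAB and 9.55 in NAB (-0.17, adjusted p = 0.853), near background in both lines. The other 26 of the 28 tested probes of the stress hormone and glucocorticoid list also missed the threshold, among them Fkbp5, Sgk1 and the binding protein Crhbp (-0.17, -0.07 and -0.15 for the brightest probe of each), and the median of the list was -0.02. Without NAB mouse 13 the list held 2 called probes.

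Krt12, known as a keratin of the corneal epithelium, showed the same order of lines as Crhr1. The leading probe read 13.4, 12.6, 10.5, 14.2 and 14.8 in HAB and 72.2 to 100.3 (median 86.0) in NAB (-2.72, SE 0.10, adjusted p = 2.01e-12), and LAB lay at 13.9 ± 0.918. The second Krt12 probe was lower in HAB to a similar degree (-2.20, adjusted p = 2.36e-10), so this difference was seen at both of its tested probes. Rapgefl1, which resembles guanine nucleotide exchange factors and maps to the same chromosome, 11, read 34.9, 35.4, 52.2, 40.6 and 40.8 in HAB and 168 to 221 (median 183) in NAB (-2.21, SE 0.15, adjusted p = 7.20e-09), again with LAB near HAB (41.6 ± 10.1). No HAB array reached the NAB range in any of the 3 probes. This was a condition for naming Rapgefl1 and the leading Krt12 probe, but not the second Krt12 probe.

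B3galt6, a galactosyltransferase that builds the linker of proteoglycans, read 7.36, 5.17, 6.33, 5.91 and 7.07 in HAB and 33.1 to 49.7 (median 44.2) in NAB. It was at least 4.87-fold lower in HAB (-2.75, SE 0.12, adjusted p = 1.24e-11), and its second probe was lower as well (-0.49, adjusted p = 0.00744). Msmo1, an oxidase of sterol synthesis, was at 21.0, 22.1, 27.7, 24.5 and 26.5 in HAB and 97.9 to 132 (median 116) in NAB (-2.24, SE 0.10, adjusted p = 2.36e-11). LAB was near NAB for both (B3galt6 43.3 ± 5.35, Msmo1 113 ± 12.9). Slc25a18, a mitochondrial glutamate carrier, read 22.8, 19.2, 23.5, 19.5 and 20.9 in HAB and 95.3 to 145 (median 127) in NAB (-2.54, SE 0.45, adjusted p = 0.00205), and its 6 LAB arrays spread from 22.8 to 197. The phosphofructokinase gene Pfkp and the complement protease gene Masp2 were dim on NAB arrays (Pfkp 9.71 to 20.3, Masp2 15.6 to 27.8) and at background on all HAB arrays, at least 1.45-fold and 2.26-fold lower in HAB. A second dim Pfkp probe was lower as well (-0.77, adjusted p = 0.0128), but the brightest, at 126 in HAB and 104 in NAB, did not pass (+0.28, adjusted p = 0.427).

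**Figure D2:**
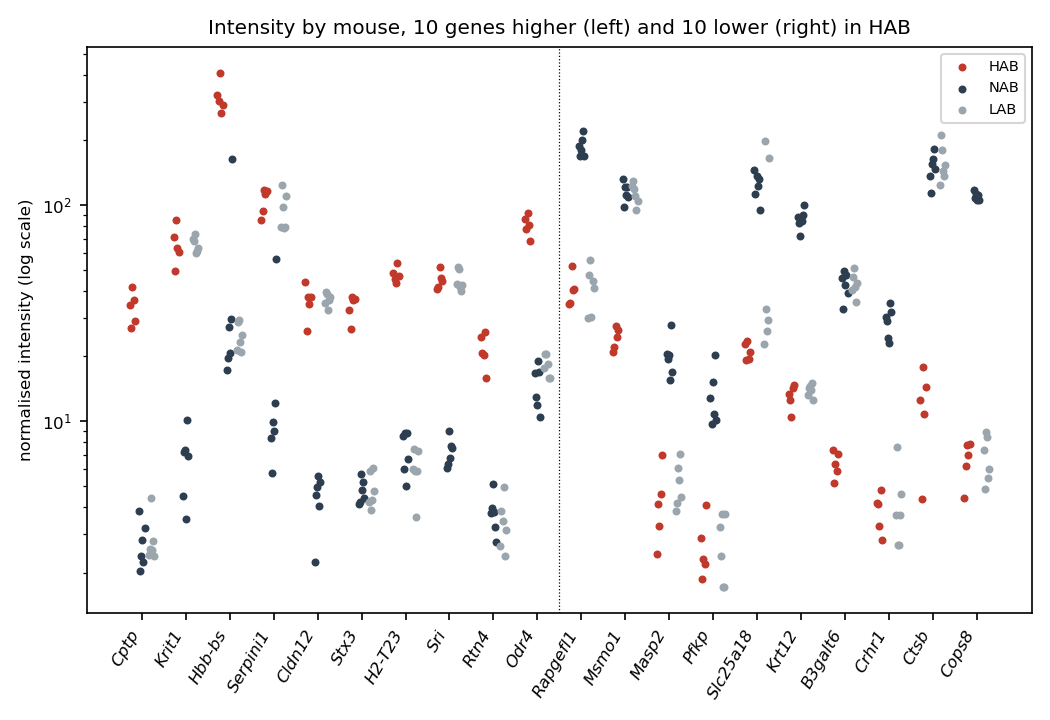
Normalised intensity (vertical axis, log scale) of every Cg mouse for the 10 genes with the largest rise (left) and the 10 with the largest fall (right) in HAB among the probes whose HAB and NAB arrays do not overlap. Each point is 1 mouse. LAB points (grey) lie nearer to HAB for 10 of the 20 genes, such as Krit1 and Cops8. They lie nearer to NAB for the other 10, such as Cptp and Ctsb. Among all called probes the split was similar, with the LAB mean nearer to HAB at 201 and nearer to NAB at 189.

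Lower in HAB and bright on all 11 arrays were also Noct, the gene of the circadian phosphatase nocturnin (26.1, 22.9, 32.6, 30.5 and 29.3 in HAB, 85.9 to 115 in NAB, -1.86, SE 0.12, adjusted p = 1.93e-09), and C1galt1, a galactosyltransferase of O-glycans (15.7 to 25.9 in HAB, 48.7 to 77.2 in NAB, -1.67, SE 0.14, adjusted p = 2.48e-07). The RNA helicase gene Ddx6, active in processing bodies, was at 29.3 to 44.3 in HAB and 74.2 to 124 in NAB (-1.46, SE 0.14, adjusted p = 1.12e-06). The groups were apart in all 3 genes. At Noct and Ddx6 the second probe did not pass (-0.02 and +0.06, adjusted p = 0.996 and 0.973). Neither did the 2 other probes of C1galt1 (-0.16 and -0.07, adjusted p = 0.876 and 0.973). The potassium channel gene Kcnh1 read 22.8, 15.4, 26.8, 19.3 and 96.8 in HAB and 72.5 to 111 (median 91.1) in NAB (-1.68, SE 0.31, adjusted p = 0.00280). Its groups overlapped because HAB mouse 17, at 96.8, lay inside the NAB range while the other 4 HAB mice did not exceed 26.8. Without this mouse the difference was -2.13. The other Kcnh1 probe was not called, with a difference of 0.17 in size.

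Over all genes with a called probe, agreement between probes was limited. Of the 284 genes, 153 had 1 tested probe, and 131 had at least 1 other. In 17 of these 131 genes another probe was called in the same direction and in 3 (Ctsb, Rpl21 and Vars2) in the opposite one, Rpl21 counting in both, and in 112 no other probe was called. Of the 194 other probes 126 had the sign of the called probe and 24 were called, 21 in the same direction and 3 in the opposite one. A call thus stood for a probe, and for most of the 131 genes it was not seen at a second probe of the gene.

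Pathway lists and cell type markers were then read against the 2.13% of all probes called and their median of +0.02. These lists, and those cited above, were chosen with earlier results of these data known. Their shares are therefore a description without a test. In the list of GABA transmission, 2 of 18 probes passed, in opposite directions. Slc32a1, which loads GABA into synaptic vesicles, read 233, 203, 249.9, 257 and 274 in HAB and 107 to 152 (median 117) in NAB without overlap (+0.97, SE 0.11, adjusted p = 6.96e-06), and LAB was at 248 ± 22.4. A probe of the GABA-B receptor subunit gene Gabbr1 read 49.4 to 75.1 in HAB and 93.8 to 119 in NAB (-0.77, SE 0.10, adjusted p = 9.64e-05), with LAB at 100.4 ± 11.1. Its second probe was at +0.30 (adjusted p = 0.549). Slc32a1 is also a marker of interneurons, and of the 19 probes of that list it alone passed. The GABA-synthesising enzymes Gad1 and Gad2 differed by -0.07 and -0.06 at their brightest probes and the peptides Sst and Npy and the calcium buffer Pvalb of interneurons by 0.00, -0.06 and +0.12. None of 51 probes for glutamate transmission, 19 for monoamine and acetylcholine signalling and 22 for immediate early genes passed, with medians of +0.05, +0.01 and -0.09. Of the glutamate probes 1 was called without NAB mouse 12 or NAB mouse 13, and of the immediate early genes 1 without HAB mouse 09.

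Energy metabolism showed calls in one list and none in another. In pyruvate oxidation and the citrate cycle, 5 of 40 probes (12.5%) were called, 1 higher and 4 lower in HAB, while the median of the list was -0.01. The kinase gene Pdk1, whose product inhibits pyruvate dehydrogenase, was dim (7.77 to 12.8 in HAB, 3.86 to 10.2 in NAB, +1.08, SE 0.21, adjusted p = 0.00466) with overlapping groups. Lower were Pdk2 (-0.57, SE 0.15, adjusted p = 0.0468), the pyruvate dehydrogenase subunit gene Pdhb (18.8 to 21.3 against 24.8 to 34.0, -0.69, SE 0.15, adjusted p = 0.0119) and the oxoglutarate dehydrogenase gene Ogdh (67.3 to 74.0 against 119 to 135, -0.85, SE 0.17, adjusted p = 0.00627). A dim probe of the malate dehydrogenase gene Mdh1 was lower too (-1.62, SE 0.17, adjusted p = 3.58e-06), whereas its 2 other probes were at +0.13 and +0.03 (adjusted p = 0.949 and 0.995). The second probes of Pdk1 and Pdhb were not called, with differences of 0.41 and 0.14 in size. The call of Pdk2 was lost without any one of 9 of the 11 mice, all but HAB mouse 17 and NAB mouse 08, with differences of -0.61 to -0.44. Of 82 probes for the respiratory chain and ATP synthase none passed, and their differences stayed between -0.44 and +0.29, although 1 was called without NAB mouse 04. Among mitochondrial carriers 4 of 29 probes (13.8%) passed, Slc25a3 as higher and Slc25a18, Slc25a30 (-1.25) and the peroxisomal Slc25a17 (-0.93) as lower. The second Slc25a30 probe was not called (0.01 in size).

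In other lists single genes carried the calls. All 3 tested probes of Gstp1, a glutathione transferase, were higher in HAB. The probe with the largest difference read 286, 292, 254, 248 and 230.5 in HAB and 124 to 156 (median 138) in NAB (+0.90, SE 0.08, adjusted p = 4.94e-07), the others differed by +0.73 and +0.57, and the groups were apart at each. Of the listed circadian genes, the transcriptional repressor Bhlhe41 (14.9 to 21.8 in HAB, 5.15 to 13.2 in NAB, +1.32, SE 0.18, adjusted p = 9.68e-05) and Per3 (+0.96, SE 0.21, adjusted p = 0.0157) were higher, 2 of 29 probes. The 2 other Per3 probes were not called and differed by at most 0.19 in size. This list did not hold Noct, which was called as lower (-1.86). In sterol synthesis 3 of 32 probes passed, Msmo1 as lower and Spring1 (+1.28) and Dhcr7 (+0.38), the last enzyme of cholesterol synthesis, as higher. The calcium channel subunit gene Cacna1c (+0.64, SE 0.13, adjusted p = 0.00538) was called as 1 of 33 sodium and calcium channel probes, and Kcnh1 as 1 of 52 potassium channel probes. With the mouse as a random block across regions Cacna1c and Per3 lost their calls, which left 0 channel probes of the Cacna1c list and 1 circadian probe. Among 81 probes for synaptic vesicle release Stx3 and Rab3b (+0.39) were higher, but the call of Rab3b was lost without any one of 8 mice and in both fits with a block. The genes that the study followed by qPCR, which it had chosen on HAB and LAB arrays, those of this series together with a second array platform, and which therefore give no independent evidence, held 10 called probes of 46. Higher were Gnaq, Stx3, Hmgn3 (+0.87), Aldh3a2 (+0.40) and the second Ctsb probe, and lower were Ctsb, Kcnh1, Pdhb, Slc25a17 and Apbb1 (-0.72). The 2 other Hmgn3 probes were not called and differed by at most 0.37 in size. The 2 other Apbb1 probes had the opposite sign and did not pass (+0.58 and +0.23, adjusted p = 0.246 and 0.928). Of 11 probes for the qPCR reference genes of the study none was called. Calls in further lists were those of genes named above, B3galt6 with 2 of 40 probes for glycosaminoglycan synthesis, Ctsb with 2 of 63 lysosomal probes, Rtn4 with 1 of 86 probes for axon growth, and Krit1 and Cldn12 with 3 of 17 junction probes. None of 14 complement probes and 3 probes for earlier candidates of these lines was called. The complement list did not hold Masp2, which was called as lower (-2.29).

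Markers of cell types gave few calls. Excitatory neurons (27 probes), oligodendrocytes (25), their precursors (10), capillaries (17), meninges (8), choroid plexus (2) and striatal neurons (11) had 0 called probes in this fit, in which 1725 of the 18274 probes had an unadjusted p of at most 0.05. These counts of 0 were not fixed. Striatal neurons had 2 called probes without NAB mouse 04, the array with the high striatal sum, and 2 with the mouse as a random block across regions. Excitatory neurons had 1 without HAB mouse 09, NAB mouse 02 or NAB mouse 04, with that block, and under 4 other alternatives (both scalings, array weights and 16 added before log2). Single calls were the astrocyte receptor gene Ntsr2 (204 to 228 in HAB, 136 to 165 in NAB, +0.46, SE 0.07, adjusted p = 3.41e-04), the microglial adapter gene Tyrobp (+0.80, SE 0.17, adjusted p = 0.0125) and the smooth muscle actin gene Acta2 (+0.90, SE 0.19, adjusted p = 0.00984), each higher in HAB. Acta2 was not called with the mouse as a random block, which left 0 pericyte probes. The 2 other Acta2 probes did not pass (+0.30 and +0.33, adjusted p = 0.651 and 0.721). The astrocyte list had 2 called probes without NAB mouse 12 or NAB mouse 13, and the microglia list 2 without NAB mouse 15. The summed intensity of each of the 12 marker lists overlapped between HAB and NAB. For astrocytes it ranged from 1557 to 1991 in HAB and from 1231 to 1707 in NAB, for microglia from 437 to 509 and from 396 to 482, and for pericytes and smooth muscle from 439 to 581 and from 329 to 554. Their part in the called genes was not tested.

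Red blood cell genes held 4 called probes of 13, all of beta-globin. Of the 9 probes assigned to the beta-globin gene Hbb-bs, 3 were higher in HAB. The leading one read 324, 303, 409, 265 and 289 in HAB, 17.2 to 29.8 in 5 NAB mice and 163 in NAB mouse 15 (+3.33, SE 0.39, adjusted p = 1.61e-05), and the other called probes differed by +1.32 and +0.88. A probe of the neighbouring Hbb-b2 was lower (6.22 to 9.23 in HAB, 16.5 to 32.0 in NAB, -1.64, SE 0.18, adjusted p = 8.66e-06). The brightest Hbb-bs probe (+0.19), the alpha-globin gene Hba-a1 (+0.29) and the erythroid enzyme gene Alas2 (-0.06) did not pass, with adjusted p of 0.684, 0.273 and 0.980. The beta-globin genes are near-identical copies, so the assignment of these probes to one of them is uncertain.

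Called genes were not spread evenly along the genome. In the order of 10536 tested genes given by RefSeq for the GRCm38.p6 assembly, 282 had a called probe (2.68%). A directly adjacent tested gene was called for 58 of these 282 (20.6%) and for 529 of all 10536 (5.02%). The share of called genes was 5.79% on chromosome 2 (50 of 864), 4.52% on chromosome 14 (16 of 354), 4.32% on chromosome 7 (36 of 834) and 0.309% on chromosome X (1 of 324). Of all stretches of 40 consecutive tested genes, the one with most calls ran from Trpc4ap to Ppp1r16b on chromosome 2 and held 12 called genes, 8 higher and 4 lower in HAB. Among them were Slc32a1 (+0.97), its neighbour Actr5 (+0.90), Ppp1r16b (-1.15), Manbal (+1.49) and the neuronatin gene Nnat (+1.24). Next came Hbb-bt to Rnf141 on chromosome 7 (9 called genes, among them Hbb-bs, Apbb1, Trim3, Ipo7 and Sbf2), and 3 stretches with 7 called genes each. One of these, Cdk6 to Pus7 on chromosome 5, contained Krit1, Mterf1a, Cdk14, Cldn12, Cfap69, Sri and 1700109H08Rik, of which Cdk14 (-0.94) was lower and the rest higher in HAB. The stretches were picked for their calls, so these counts are a description without a test. Runs of adjacent called genes numbered 26, and 25 of their genes stood in runs of mixed direction, such as B3galt6 (-2.75), Sdf4 (+1.25) and 9430015G10Rik (-1.79) on chromosome 4.

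**Figure D3:**
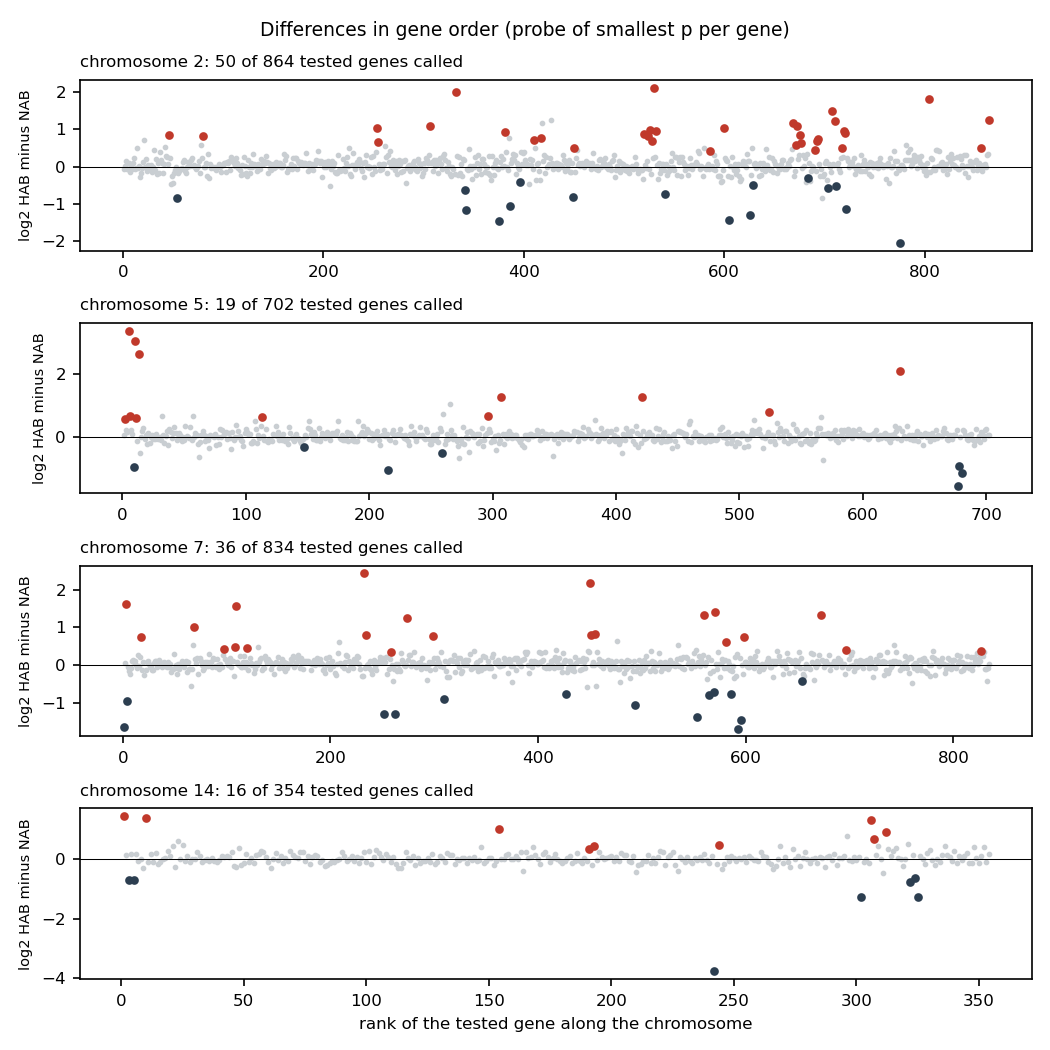
Log2 difference HAB minus NAB (vertical axis) of the tested genes in their order along chromosomes 2, 5, 7 and 14 (horizontal axis, rank of the gene), each gene by its probe of smallest p. Red and dark points are called genes higher and lower in HAB; on chromosome 5 a group of called genes stands at the left end, and chromosome 2 has 50 of 864 genes called.

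Whether the Cg difference was unlike that in other regions was tested on all arrays with values, with the mouse as a random block. The difference in the Cg departed from the mean difference of the CeA, PVN, BLA and DG at 5 of 18274 probes (0.0274%). They belonged to Crhr1 (-1.37, SE 0.23, adjusted p = 0.00325), Krt12 (-1.31, SE 0.24, adjusted p = 0.0107), 5430405H02Rik (+1.00, SE 0.20, adjusted p = 0.0339), H2-T9 (+0.80, SE 0.17, adjusted p = 0.0354) and H2-T23 (+0.73, SE 0.15, adjusted p = 0.0354). Only Crhr1 passed under all alternatives of this test, and Krt12 in all but the fit without HAB mouse 09. The count was 1 without HAB mouse 09, 2 without HAB mouse 01, HAB mouse 11 or NAB mouse 02, and 3 without NAB mouse 04 or NAB mouse 12. The DG had 3 HAB and 3 NAB arrays with values. Without this region 4 probes passed, and 2 of them, those of Crhr1 and Krt12, were among the 5. Arrays of each region were hybridised as a separate batch, so region and batch cannot be told apart in this test.

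Crhr1 was at background in HAB in all regions, with means from 3.29 (PVN) to 4.39 (BLA). NAB means were 29.0 (range 23.1 to 35.2) in the Cg, 20.6 ± 1.98 in the BLA, 12.1 ± 2.34 in the CeA, 9.84 ± 3.50 in the DG and 6.89 ± 1.01 in the PVN, and the contrast between regions therefore lay in the NAB levels. Krt12 in NAB was likewise highest in the Cg (86.2 ± 9.18), then in the BLA (56.3 ± 8.38), the DG (32.7 ± 5.44), the CeA (18.4 ± 2.48) and the PVN (11.6 ± 11.5), whereas HAB means were between 6.41 and 13.1. In the PVN NAB mouse 04 read 32.2, while the other NAB mice read 5.66 to 6.98 and HAB mice 5.73 to 7.38, so the lines overlapped. For H2-T9 the HAB means were 45.2 ± 4.70 in the Cg and 29.3 to 45.9 elsewhere, and NAB was lowest in the Cg (12.0 ± 3.48), next to 12.3 in the CeA, 17.1 in the DG and 19.7 in the BLA, and highest in the PVN. The H2-T23 probe differed by +1.39 in the Cg and by +0.67 (CeA), +0.96 (PVN), +0.70 (BLA) and +0.33 (DG) elsewhere. The mean differences of these 4 genes had the same sign in every region, but not every one was called. Crhr1 was not tested in the PVN and DG, nor Krt12 in the PVN, because too few arrays there exceeded background. The differences of these probes in those regions thus rest on values largely at background. In the DG Krt12 and H2-T23 did not pass (adjusted p = 0.0640 and 0.956). The transcript 5430405H02Rik was not called in the Cg (+0.09, adjusted p = 0.913), where NAB read 20.1 ± 1.25, and NAB reached 44.1 ± 7.89 in the PVN and 46.6 ± 13.7 in the DG against 20.5 and 19.1 in HAB.

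**Figure D4:**
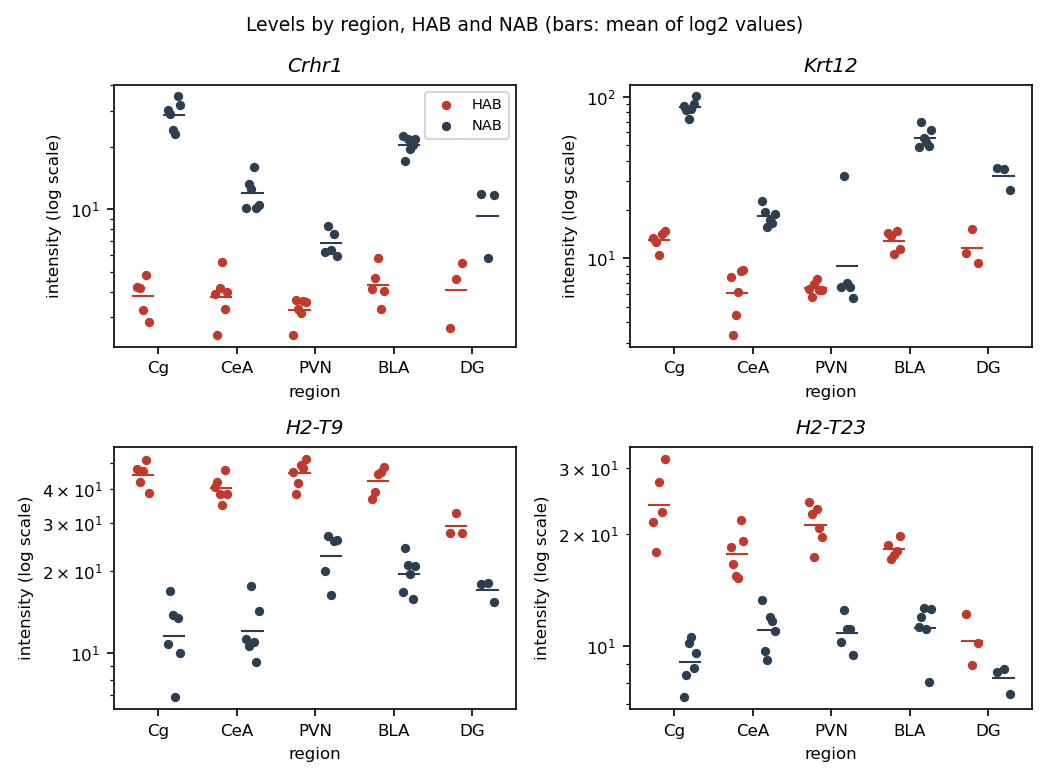
Normalised intensity (vertical axis, log scale) by region (horizontal axis) of the 4 probes that were called in the Cg and differed from the other regions. Each point is 1 mouse of HAB (red) or NAB (dark) and each bar the mean of log2 values; Crhr1 and Krt12 show the highest NAB levels in the Cg, 29.0 and 86.2.

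The remaining leading genes had differences of the same sign in the other regions, given here as the log2 difference in the CeA, PVN, BLA and DG. Cptp differed by +3.22, +3.87, +3.90 and +3.42, Cldn12 by +3.71, +3.76, +3.55 and +4.10, and Stx3 by +2.63, +3.32, +3.02 and +3.84. Cops8 differed by -3.90, -3.65, -4.23 and -2.62, and Slc32a1 by +0.83, +1.26, +1.04 and +0.48. By the mouse numbers of the labels these regions came largely from the same mice, and they are then not independent of the Cg. Bhlhe41, at +1.32 in the Cg, was at +0.50, +0.26, +0.45 and -0.08, but its departure from the other regions did not pass (adjusted p = 0.370). Per3, called in the Cg (+0.96), had values near or below 0 elsewhere (BLA -0.26, DG -0.03, not tested in CeA and PVN), but the test of the regions gave an adjusted p of 1.00.

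Single mice stood near the other line at some genes, and so did the arrays of other regions that carry the same mouse number. Hddc3, a hydrolase gene, read 87.1 to 103 in HAB and 12.8 to 18.5 in 5 NAB mice, but 93.4 in NAB mouse 15. The same mouse read 71.7 in the CeA, 92.6 in the BLA and 77.3 in the DG, where the other NAB mice lay at 9.75 to 15.5, 11.9 to 20.1 and 25.3 to 31.3. NAB mouse 15 also stood apart for Serpini1, the gene of the protease inhibitor neuroserpin, reading 56.5 (Cg), 34.2 (CeA), 68.9 (BLA) and 34.9 (DG). The other NAB mice reached at most 12.2, 8.65, 17.0 and 8.97 in these regions, and the HAB mice read at least 85.4, 46.7, 82.9 and 41.4. At the leading Hbb-bs probe it read 163 in the Cg, against 17.2 to 29.8 in the other NAB mice and at least 265 in HAB. HAB mouse 05 showed the converse at the ribosomal protein gene Rpl30, with 27.8 in the Cg against 165 to 237 in the other HAB mice and 29.1 to 50.3 in NAB, and at the adjacent gene Mtdh, with 3.56 against 21.7 to 36.4. In the CeA, PVN and BLA this mouse read 30.4, 89.0 and 29.2 for Rpl30, where the other HAB mice read at least 128, 189 and 128.

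**Figure D5:**
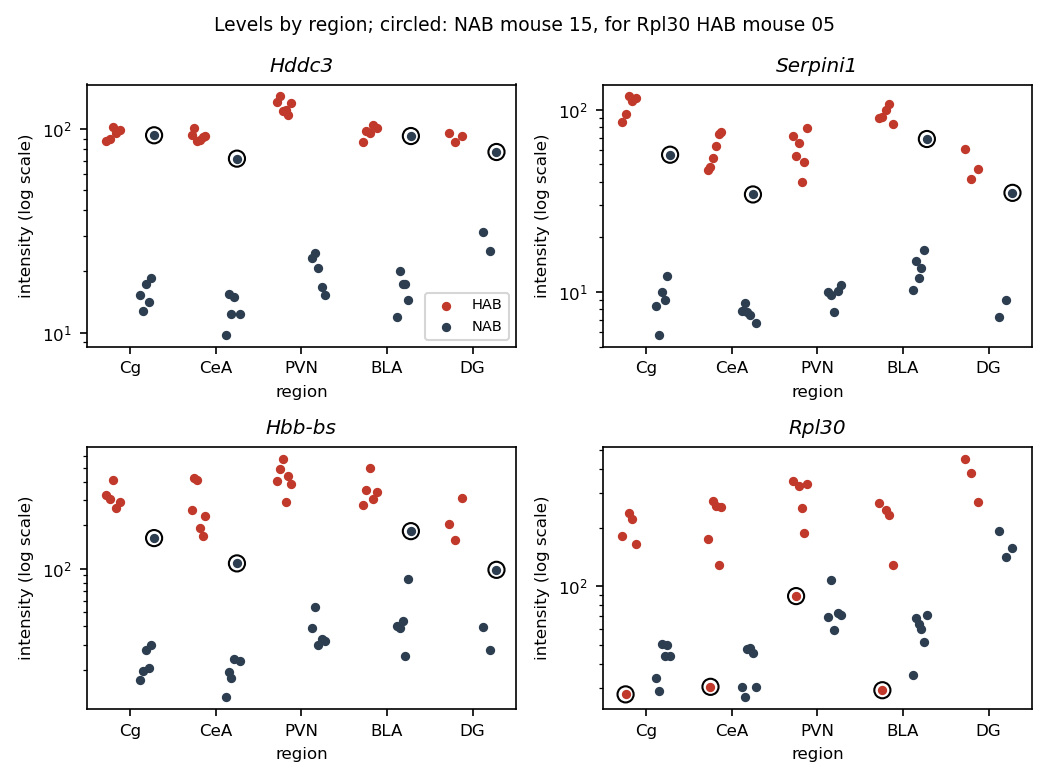
Normalised intensity (vertical axis, log scale) by region (horizontal axis) of Hddc3, Serpini1, Hbb-bs and Rpl30 in HAB (red) and NAB (dark) mice. The circled mouse is NAB mouse 15 or, for Rpl30, HAB mouse 05; in the Cg the circled values are 93.4, 56.5, 163 and 27.8, away from the other mice of their line.

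With NAB mouse 15 left out, the Cg differences rose from +2.18 to +2.61 for Hddc3 and from +3.12 to +3.56 for Serpini1, and with HAB mouse 05 left out those of Rpl30 rose from +1.71 to +2.28 and of Mtdh from +1.85 to +2.48. All 4 were called in the full set of arrays (adjusted p = 5.60e-04, 2.46e-05, 0.0164 and 0.0264), but Rpl30 and Mtdh lost it when any one of the other 4 HAB mice was left out (+1.51 to +1.64 and +1.64 to +1.83). Mtdh also lost it without NAB mouse 04 or NAB mouse 12 (+1.66 and +1.87).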

How the data were processed

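RNA of laser-microdissected tissue was amplified in 1 round and hybridised to Illumina mouse bead arrays, with the arrays of a region in 1 batch. The authors read the arrays with BeadStudio and normalised all of them with QSpline (versions not given in the sources used here), and the deposited values are normalised intensities on a linear scale. Values were log2-transformed and fitted with limma 3.58.1 in R 4.3.3 on the 17 Cg arrays with the 3 lines as groups, and p-values were adjusted over all probes tested (Benjamini-Hochberg, threshold 0.05). All adjusted p in the text come from limma. The labels call the mice biological replicates, and the number of arrays limits the precision. Background was the 95th percentile of 1305 receptor probes of an array. Of 46643 probes, 32794 had 1 gene symbol, 55 several and 13794 none, and 32722 were updated by Entrez identifier to RefSeq, whose GRCm38.p6 table gave names and gene order only. Where all arrays of a line lay at background, "at least" folds set the mean log2 value of the brighter line against the mean log2 background level of the dimmer line's arrays. Regions were compared in a joint fit of 15 groups with the mouse as random block (consensus correlation 0.0149, reused in the leave-one-out, unfiltered and weighted fits). A mouse number in the titles was taken as 1 mouse in every region, although the titles number more NAB and LAB mice than the methods give for a line, so the block and the mice followed across regions rest on these labels.

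Named genes are the 10 higher and 10 lower with the largest difference and no overlap between lines, the 8 higher and 8 lower that were above background on all 11 arrays, called probes of the gene lists, the 5 higher and 5 lower that departed most from other regions, and called neighbours. The fits were tested on simulated data. Members, lists, filter and tests were chosen with earlier results of these data known. The stretches of 40 genes, the single mice followed across regions, and other genes outside the rule (5430405H02Rik, Manbal, Ipo7, Sbf2, Vars2 and probes that did not pass) were chosen after their values were seen. Alternatives changed the arrays in the fit, filter, scaling, value added before log2, spread estimate, block and threshold. The deposited table before normalisation was not used because its 156 per-sample columns match no label, and 3 DG arrays carried no values.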

Additional observations from a re-analysis of the deposited data

Results flagged for a closer look

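In 22 of 234 groups of 5 or 6 Cg arrays of the named probes, 1 mouse stood far from the others of its line by Dixon's test, where chance alone picks about 1 in 20 groups. NAB mouse 15 read 93.4 for Hddc3 (others 12.8 to 18.5), 56.5 for Serpini1 (5.80 to 12.2), 163 for Hbb-bs (17.2 to 29.8) and 8.64 for Tsc22d1 (17.8 to 23.7). For Tsc22d1 this did not recur clearly elsewhere, with 12.8 in the CeA (others 13.1 to 31.2), 33.3 in the BLA (20.5 to 42.2) and 8.24 in the DG (4.11 to 30.4). HAB mouse 05 read 27.8 for Rpl30 (165 to 237), 3.56 for Mtdh (21.7 to 36.4), 7.77 for Pdk1 (11.3 to 12.8), 15.3 for Trim3 (18.5 to 19.7) and 56.6 at the second Ctsb probe (66.8 to 70.6). NAB mouse 12 read 63.4 for Fam171b (157 to 251), within the HAB range of 52.3 to 88.8, and 132 at a Gstp1 probe (160.0 to 168). In the PVN and BLA this mouse read 42.1 and 94.4 for Fam171b, where the other NAB mice were at 94.0 to 172 and 169 to 307.

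NAB mouse 04, whose array had the highest striatal marker sum, read 2.91 for Mtdh (5.91 to 7.90) and 24.8 for Pdhb (30.3 to 34.0). For Mtdh it read 7.01 in the CeA (others 4.97 to 8.09), 7.81 in the PVN (5.04 to 8.58), 10.6 in the BLA (7.46 to 10.1) and 12.0 in the DG (13.1 to 19.8). NAB mouse 13 read 119 for Gabbr1 (93.8 to 99.6), 19.3 for Ltbp3 (13.1 to 14.9) and 39.7 for Mterf1a (30.5 to 33.6). NAB mouse 08 read 77.0 for Fam89b (62.8 to 67.7) and 8.41 for Lacc1 (11.5 to 12.3), and NAB mouse 02 read 2.25 for Cldn12 (4.06 to 5.60). HAB mouse 11 read 21.3 for Pdhb (18.8 to 19.1) and 3.78 for Pibf1 (6.16 to 7.47), and HAB mouse 17 read 19.6 for Man2a2 (14.3 to 15.0).

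The difference between HAB and NAB departed from that in the other regions for Crhr1 (-1.37), Krt12 (-1.31), 5430405H02Rik (+1.00), H2-T9 (+0.80) and H2-T23 (+0.73), by the test of the difference itself.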

How the results depend on the processing

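The 390 called probes became 230 when a probe had to be above background on all 11 arrays, which leaves fewer probes to test, and 151 when a difference of at least 1 was also required. In the other alternatives the count stayed between 278 (threshold 0.01) and 492 (array weights), and it was 327 to 451 with 1 mouse left out. Similar counts did not mean the same probes. Of the 390, 385 were among the 492 with array weights and 364 among the 429 with median centring. The share of called probes higher in HAB fell to 49.7% with median centring, and ranged from 49.6% to 65.4% with 1 mouse left out, lowest without HAB mouse 09. The 5 probes that departed from other regions became 3 without the filter, 10 with 16 added before log2 and 13 with array weights. Without the DG 4 probes departed, of which 2 (Crhr1 and Krt12) were among the 5. With 1 mouse left out the count was 1 to 7 (1 without HAB mouse 09, 2 without HAB mouse 01, HAB mouse 11 or NAB mouse 02, and 3 without NAB mouse 04 or NAB mouse 12). The cause was not tested. Of 117 named probes, 85 kept call and direction in every alternative that tested them (20 to 22 for each probe, since the stricter filters drop dim probes), 32 lost the call in at least 1 and 0 changed direction. Calls lost without single mice included, beside those given above for Pdk2, Mtdh and Rpl30, the second Krit1 probe (without HAB mice 01, 09, 11 or 17 or NAB mice 02, 04, 12 or 15), Rab3b (HAB 01, 05, 09 or 11 or NAB 02, 08, 12 or 15), Nnat (HAB 01, 05 or 17 or NAB 02, 08, 12 or 15), Aldh3a2 (HAB 01, 09 or 11 or NAB 02, 12 or 15), Dhcr7 (HAB 09 or 17 or NAB 02 or 12), Per3 (HAB 09, +0.83) and Slc25a17 (HAB 05, -0.80). The same held for Fam89b (HAB 05, 09, 11 or 17 or NAB 02, 04, 12, 13 or 15), Pibf1 (HAB 01, 09, 11 or 17 or NAB 02, 04, 08, 12 or 13), Man2a2 (any HAB mouse or NAB 02, 04 or 12) and Ltbp3 (HAB 01 or 05), and for Nfs1, Romo1, Rida, Pigu, Mmadhc, Tmed4, Eif2s2, Syne1 and Sh3pxd2b. With the mouse as a random block Acta2, Cacna1c, H2-Q2, Per3, Dhcr7, Aldh3a2, Rab3b, Lacc1, Tsc22d1, Pibf1 and the second Krit1 probe were among the calls lost. The array weights were estimated without full convergence.

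The replicate numbers of the labels were not treated as pairing mice of different lines, and what they stand for was not established. The deviations of same-numbered HAB and NAB arrays correlated at 0.0171 to 0.349, with 2 of 5 pairs over 0.1, and 1 HAB array correlated best with its own number. With this number as a replicate block 363 probes were called, and 357 with the mouse as a block across regions, while 5 probes departed from other regions with no replicate block. Signal near background limits 41 probes in NAB and 43 in HAB to a bound.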
